A study of Mus musculus with 2 samples.

Results

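The genes described here encode the semaphorins, plexins, Slits, Robos, ephrins and Eph receptors of the mouse. They were chosen by symbol alone, as every gene of the count table whose symbol begins with Sema, Plxna to Plxnd, Robo, Slit, Epha, Ephb, Efna or Efnb followed by its number. The rule gave 61 of the 31053 genes counted: 20 semaphorins, 9 plexins, 3 Slits, 4 Robos, 8 ephrins, 14 Eph receptors and 3 antisense genes named after Plxna4. The data are single-cell RNA sequencing of dissociated aortic arch from mice fed a normal chow diet (ND) or a high-fat, high-cholesterol diet (HFD), and they ask which arterial cells use these genes and how the levels differ between diets. All animals were male C57BL/6 mice lacking Apoe, aged 16 weeks, and the diets lasted 12 weeks. Each diet is 1 library made from 2 pooled aortas, so there is no replicate, no test between diets was possible, and diet cannot be told apart from library. Intervals below are exact 95% intervals that cover counting error only, and a fold of at least 2 is used as a rule of size.

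Semaphorins bind plexins, some of them with a neuropilin (Nrp1 or Nrp2) as co-receptor, Slits bind Robos, and ephrins bind Eph receptors on neighbouring cells. First known from growing axons, these systems are used by vessels to set the border between artery and vein, to hold sprouts back and to keep the endothelial barrier. Ephrin-B2 (Efnb2) and its receptor EphB4 (Ephb4) are the textbook marks of arterial and venous endothelium, Plxnd1 is the endothelial receptor for Sema3e, and Robo4 is a Robo found in endothelium.

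The ND library held 5416 cells and 27137322 unique molecular identifiers (UMIs, each counted as 1 RNA molecule) after filtering, and the HFD library 2739 cells and 17191279 UMIs. Median depth per cell was 3733 UMIs in ND and 5336 in HFD, and the median mitochondrial share was 16.8% and 21.9%. The sample labels give medians per cell in the opposite order, with ND the deeper, although the numbers of cells match, and the reason is not known. Cells were put in 15 classes by marker genes that are not among the 61, which gave 4997 ND and 2425 HFD cells a class. Endothelial cells were 2518 in ND and 1342 in HFD, fibroblasts 991 and 432, macrophages 346 and 501, and mesothelial cells 23 and 22. Markers not used for gating (Tie1, Erg and Tek for endothelium, Col3a1, Fbn1 and Dcn for fibroblasts, Cd68 for macrophages) were highest in their own class in both libraries, whereas the macrophage markers Csf1r (HFD) and Fcer1g (both libraries) were highest in monocytes and the monocyte markers Ccr2 and Lyz2 (HFD) in macrophages. Mural cells were only 32 and 9, so that contractile vessel wall is almost absent from what follows. Of all barcodes 39 occur in both libraries, 1 of them among the cells kept.

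Of the 61 genes, 47 had at least 50 UMIs over both libraries, 11 had 1 to 49, and Epha6, Plxna4os2 and Plxna4os3 had none. Together they held 77301 UMIs, of which semaphorins had 29108, plexins 18126, ephrins 15140, Eph receptors 8525, Robos 4841 and Slits 1401. Values are UMIs of a gene scaled to the UMI total of its class in a library (counts per 1e6, CPM), which are not divided by transcript length, so levels are compared between cells and never between genes.

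Promoters are shown for 5 genes that mark the contrast described next: Robo4, Sema3g and Efnb2, at their highest in endothelial cells, and Epha3 and Slit3, at their highest in fibroblasts. The sequences are RefSeq's on GRCm38.p6, 250 bases before to 50 after the start site, 5′ to 3′ on the gene's strand. Robo4 (ENSMUSG00000032125) lies at chr9:37401722-37402021 on the plus strand, Sema3g (ENSMUSG00000021904) at chr14:31217623-31217922 on the plus strand, Efnb2 (ENSMUSG00000001300) at chr8:8661193-8661492 on the minus strand and Epha3 (ENSMUSG00000052504) at chr16:63864126-63864425 on the minus strand. Slit3 lies at chr11:35121206-35121505 on the plus strand. Capitals mark the ETS-type letters CCGGAAG or CAGGAAG and the GC box GGGCGG, searched on both strands, so that CCGCCC is a GC box on the opposite strand.
Robo4: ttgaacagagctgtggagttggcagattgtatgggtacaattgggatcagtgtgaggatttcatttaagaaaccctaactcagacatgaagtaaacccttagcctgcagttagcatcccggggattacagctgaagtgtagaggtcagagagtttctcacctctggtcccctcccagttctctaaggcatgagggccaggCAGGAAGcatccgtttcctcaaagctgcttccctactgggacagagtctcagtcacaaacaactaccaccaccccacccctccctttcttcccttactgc
Sema3g: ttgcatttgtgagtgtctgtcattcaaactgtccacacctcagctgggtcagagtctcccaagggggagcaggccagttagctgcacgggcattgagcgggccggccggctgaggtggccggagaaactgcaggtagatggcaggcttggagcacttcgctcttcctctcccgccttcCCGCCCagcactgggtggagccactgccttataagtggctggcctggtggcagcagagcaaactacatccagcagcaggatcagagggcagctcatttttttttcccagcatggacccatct
Efnb2: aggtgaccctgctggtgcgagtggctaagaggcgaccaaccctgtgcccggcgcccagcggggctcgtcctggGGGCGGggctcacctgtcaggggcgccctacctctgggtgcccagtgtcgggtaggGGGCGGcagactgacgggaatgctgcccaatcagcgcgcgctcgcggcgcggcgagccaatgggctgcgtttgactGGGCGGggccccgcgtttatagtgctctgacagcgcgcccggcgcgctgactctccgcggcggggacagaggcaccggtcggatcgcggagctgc
Epha3: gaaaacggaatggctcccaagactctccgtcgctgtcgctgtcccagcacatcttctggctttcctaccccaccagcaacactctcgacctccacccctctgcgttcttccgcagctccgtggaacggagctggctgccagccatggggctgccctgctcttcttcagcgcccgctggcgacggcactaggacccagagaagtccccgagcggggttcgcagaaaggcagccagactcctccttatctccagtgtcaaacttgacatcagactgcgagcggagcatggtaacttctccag
Slit3: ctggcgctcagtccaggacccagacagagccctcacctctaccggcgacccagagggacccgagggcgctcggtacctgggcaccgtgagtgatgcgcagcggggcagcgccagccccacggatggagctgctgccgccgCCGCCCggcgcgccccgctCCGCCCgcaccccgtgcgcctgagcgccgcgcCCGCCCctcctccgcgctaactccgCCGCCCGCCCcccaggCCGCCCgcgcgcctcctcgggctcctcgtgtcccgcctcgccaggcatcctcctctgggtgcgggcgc
Robo4 held 1 match, CAGGAAG 50 bases before the start site, Sema3g held 1 GC box, Efnb2 held 3 GC boxes at 177, 121 and 45 bases before the start site, Epha3 held none of these letters, and Slit3 held 6 GC boxes, all on the opposite strand. RefSeq gave 67 promoters for 51 of the 61 genes. A GC box was in 47 of these 67 promoters (70.1%), against 35.7% of all 32851 promoters of the same length. Of the 16 promoters of genes that were highest in endothelial cells in both libraries 14 held one (87.5%), and of the 3 promoters of genes highest in fibroblasts in both libraries 1 did (33.3%). TATAAA was in 2 of the 67 (2.99%), against 13.6% of all promoters, and the ETS-type letters were in 11 of the 67 (16.4%), against 20.9%. These are matches of letters in a window and say nothing of which factor binds.

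Endothelial cells held the largest group of these genes. Among the 8 classes with at least 10 cells in both libraries, 16 of the 45 genes with enough UMIs to be ranked in ND (at least 50 over gated cells) were highest in endothelial cells, against 15.9% of all ranked genes, and 16 of 35 in HFD, against 15.6%. The same 14 genes were highest there in both libraries. Fibroblasts were the highest class for 10 and 5 genes (background 16% and 12.8%), mesothelial cells for 15 and 8 (26.5% and 21.6%), macrophages for 2 and 3 (7.25% and 7.8%), and monocytes for Sema4d in both (8.74% and 10.8%). B cells were highest for 1 gene in each library (6.13% and 4.42%), dendritic cells for 0 and 1 (8.57% and 8.08%), and T cells for none (11% and 18.9%). The class of highest level was the same in both libraries for 26 of the 35 genes ranked in both, against 47.8% of all genes ranked in both.

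**Figure D1:**
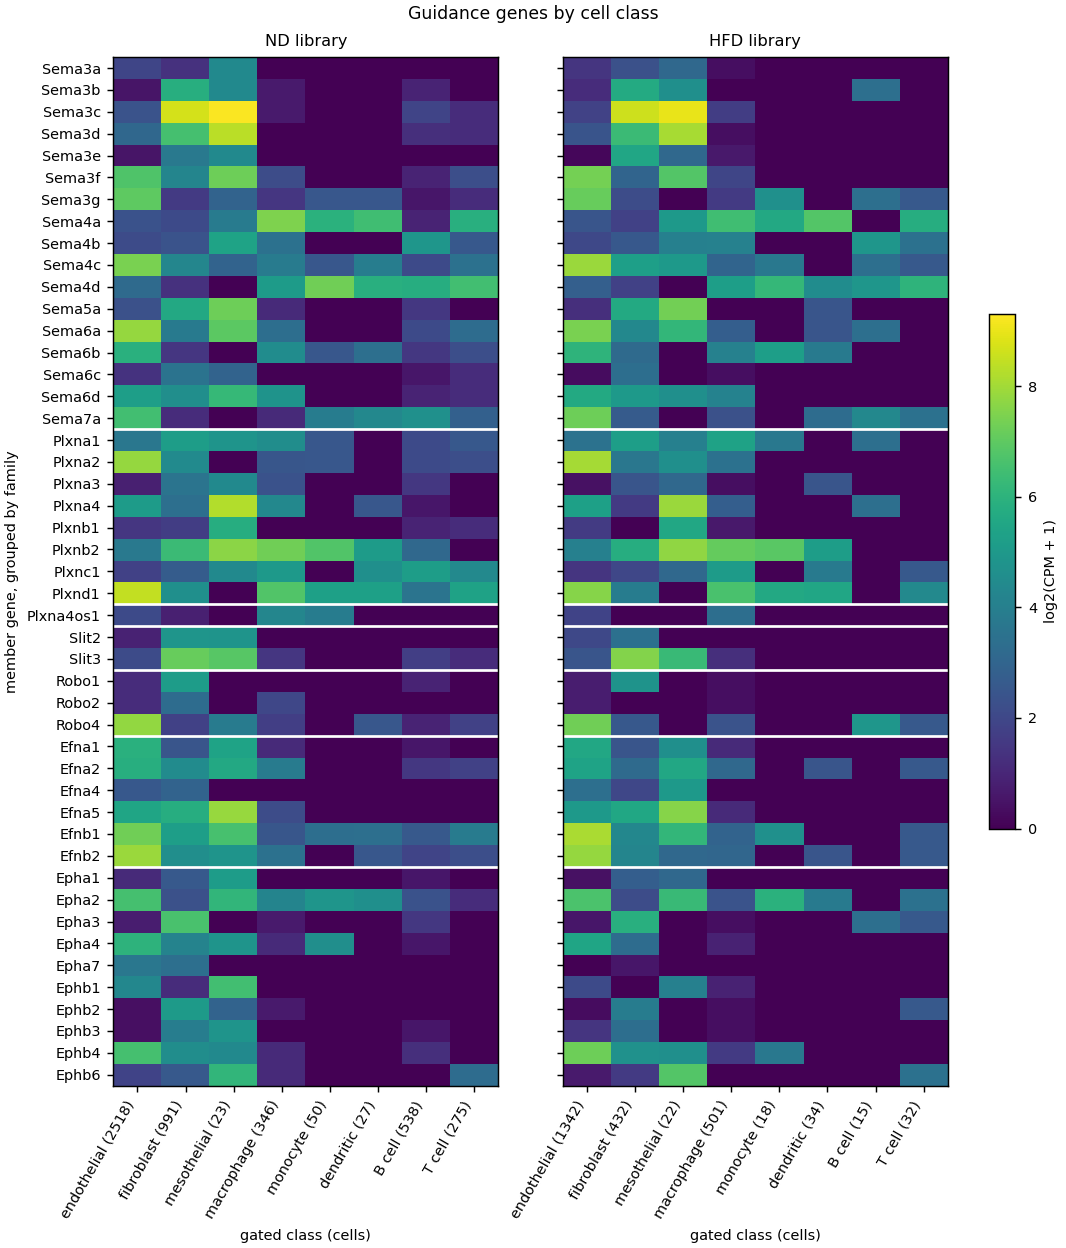
Level of the 47 guidance genes with at least 50 UMIs in each of the 8 cell classes with at least 10 cells in both libraries, as log2(CPM + 1) in colour, with genes in rows grouped by family, classes in columns with their number of cells, and 1 panel per library. Endothelial columns are bright for Efnb2, Plxnd1, Robo4, Sema3g and Sema6a in both libraries, and the fibroblast and mesothelial columns for Sema3c and Sema3d.

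Of 30 members with at least 20 UMIs in the class in each library, 19 were at least 2-fold higher in endothelial than in all other gated cells in both libraries, against 13% of all genes tested. The minimum is counted in the class itself, so it favours genes high there, for members and for all genes. Among the ligands, Sema3g, a secreted semaphorin of arterial endothelium, stood at 128 CPM in ND and 141 in HFD, with 2.24 and 2.77 CPM in the other cells. Efna1, a membrane-anchored ligand of EphA receptors, stood at 58.1 and 46.6 CPM against 3.31 and 2.46 elsewhere. In each library both lay far above the level of the other cells.

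Efnb2 was at 238 and 228 CPM in endothelium and at 14.4 and 10.2 in the other cells. Its receptor Ephb4 was at 92.6 and 150.4 CPM in the same class and at 9.84 in the others in each library. The arterial and the venous mark were therefore both endothelial in these libraries.

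Among the receptors, Robo4 was at 219.5 CPM in ND and 154 in HFD in endothelium, from 2897 and 1331 UMIs, and at 2.06 and 4.61 CPM elsewhere. Plxna2, a class A plexin, was at 227 and 260.2 CPM against 10.8 and 10.2 elsewhere. Plxnd1 was at 346 and 197 CPM against 34.97 and 62.0, and macrophages were its second class, at 108 CPM in ND and 98.8 in HFD. The remaining members of this group were Sema6a, Sema4c, Sema7a, Sema3f, Sema6b, Sema6d, Efnb1, Efna2, Epha2, Epha4, Ephb1 and Plxna4. Not all had endothelium as their highest class. In ND the few mesothelial cells stood above endothelium for Ephb1 (88.5 against 18.7 CPM), Sema6d (74.8 against 36.1) and Sema3f (149.7 against 106). In HFD they did so for Efna2 (47.2 against 41.5), and in both libraries for Plxna4. The co-receptor Nrp1 was at 494 and 552 CPM in endothelium, and Nrp2 at 273 and 148.

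Fibroblasts held Slit-Robo genes and secreted class 3 semaphorins. By the same rule 10 of 21 members tested were at least 2-fold higher in fibroblasts than in other gated cells in both libraries, against 15.1% of all genes tested. Sema3c, a secreted semaphorin known for its part in outflow tract septation, was at 416 CPM in ND and 382 in HFD, against 9.57 and 7.54 in the other cells. Slit3, a secreted Slit, was at 139.6 and 191 CPM against 4.08 and 4.27. The receptor Robo1 was at 34.7 and 26.6 CPM against 1.42 and 0.534, and the receptor Epha3 at 97.5 and 57.7 against 0.933 and 0.609. For Epha3 the fold over other cells was 104 in ND and 94.7 in HFD, and for Slit3 34.2 and 44.9. Ephb2, Sema3b, Sema3d, Sema3e, Sema5a and Slit2 completed the group.

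Mesothelial cells, the lining of the outer surface, were only 23 and 22, and 6 members had the 20 UMIs in each library that the rule needs. All 6 passed, against 28.5% of all genes tested, but with so few cells only genes high in this class reach the minimum, so the count supports nothing. Sema3d, a secreted semaphorin, was at 320 CPM in ND and 268 in HFD, from 47 and 34 UMIs, against 20.4 and 13.3 in the other cells. Sema5a, a membrane semaphorin, was at 149.7 and 157 CPM, and Plxna4 at 299 and 236, the highest level of that receptor in any ranked class. Sema3c was at 599 CPM (95% interval 480.2 to 738) and 504 (388 to 643), where the HFD interval overlapped that of fibroblasts (355.5 to 409.8), and Efna5 and Plxnb2 also passed.

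In macrophages 5 of 12 members tested passed the rule, against 13.1% of all genes tested. Sema4a, a membrane semaphorin of immune cells, was at 178 CPM in ND and 86.6 in HFD against 9.35 and 7.84 in the other cells, and dendritic cells had 85.6 and 110.5. Plxnb2, a receptor for class 4 semaphorins, was at 154 and 135 CPM against 31.1 and 25.3, and higher still in mesothelial cells, at 204 and 213. Plxnc1, the receptor for Sema7a, was at 31.6 and 33.6 CPM against 7.19 and 2.67, with 35.4 in ND B cells, while Sema7a itself was an endothelial gene, at 89.3 and 149 CPM. Plxna4os1 was at 18.1 and 9.31 CPM against 2.34 and 1.98. It lies inside Plxna4 on the opposite strand (GRCm38 chromosome 6, 32511073 to 32515576), and the handling of strand in the counts was not stated, so reads of the pair may not be told apart.

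Sema4d, the fifth of these, was spread over leukocytes. It was at 33.4 and 36.4 CPM in macrophages, 155 and 72.4 in monocytes (33 and 6 UMIs), 88.2 and 64.9 in T cells, 55.1 and 28.8 in B cells (120 and 3 UMIs) and 8.34 and 6.01 in endothelium. The HFD library had 15 B cells and 18 monocytes, so its order among leukocytes is not settled by these counts. No member had 20 UMIs in both libraries in monocytes, dendritic, T or B cells, so the rule of size could not be applied there. The folds of Sema4d over other cells were 9.49 in ND and 5.22 in HFD monocytes and 5.84 and 4.81 in T cells, and those of Sema4a in dendritic cells were 4.15 and 4.42. Smaller classes, present mainly in ND, also held members of the families. In 29 ND Schwann cells Sema3b was at 690.2 CPM (95% interval 512 to 910.0, 50 UMIs), against 55.3 in fibroblasts. In 75 ND neutrophils Sema4a was at 196 CPM (132 to 279.5). The 61 airway club cells, all in ND, had Epha2 at 107 CPM (89.1 to 128), Plxnb2 at 103 and Plxnb1 at 42.3. These genes of the small classes were picked after their values were seen.

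Endothelial cells were divided by other markers into luminal (Vwf, Vcam1, Cytl1; 278 ND and 130 HFD cells), arteriolar (Stc1, Hey1, Gja4, Gja5, Bmx; 175 and 124) and capillary cells (Gpihbp1) with or without Cxcl9 (1074 and 243 with, 843 and 799 without). The luminal cells stood apart. Of 22 members with enough UMIs, 3 were at least 2-fold higher and 7 at least 2-fold lower in luminal than in capillary cells in both libraries, against 19.4% of all genes tested. These members, and those of the other sets, were named after their values were seen.

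Efna5, an EphA ligand, was at 226 CPM in ND and 208 in HFD luminal cells, from 559 and 257 UMIs. In arteriolar cells it was at 3.16 and 8.22 CPM, and in the 4 capillary values between 0.451 and 1.13. It was present in the luminal set and all but missing from the other sets, although endothelium as a whole was not its highest class. Plxna4 was at 111 and 87.4 CPM in luminal against 12.9 and 28.7 in capillary cells, and Plxnb2 at 32.8 and 52.6 against 5.62 and 6.29. Sema4d, which did not reach the minimum to be tested there, was at 29.9 and 23.5 CPM in luminal cells and between 1.49 and 2.93 in the capillary sets.

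The members that were lower in cells of the luminal gate were Robo4, Efnb1, Efna2, Epha2, Sema4c, Sema6b and Sema7a. Robo4 was at 27.5 and 21.9 CPM in luminal cells and at 283 and 181.8 in capillary cells. Sema4c, a membrane semaphorin, was at 26.3 and 16.2 CPM against 217 and 279, and Efnb1, a ligand of EphB receptors, at 25.1 and 35.6 against 189 and 323. In each case every luminal value lay below every capillary value. With each cell thinned to 1000 UMIs, which leaves fewer UMIs, 0 members were counted as higher in luminal than in capillary cells.

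Against arteriolar cells, luminal cells had the same 3 members higher and 8 of 20 lower, the 7 above and Sema3g, against 17.3% of all genes tested. Arteriolar cells differed less from capillary cells, with 2 of 21 members at least 2-fold higher in both libraries, against 1.83% of all genes tested. Sema3g was at 371 CPM in ND and 280.5 in HFD arteriolar cells, against 119 and 134 in capillary and 47.7 and 85.0 in luminal cells. Plxnb2 was the other, at 12.7 and 15.4 CPM from 16 and 15 UMIs. Efnb2 was at 365 and 308 CPM in arteriolar, 424 and 288 in luminal and 172 and 207 in capillary cells, so of these 3 kinds of cell the arterial mark was lowest in capillaries in both libraries. Ephb4 stayed between 86.4 and 95.1 CPM in the 4 ND sets and between 110.1 and 161 in the 4 HFD sets. Between capillary cells with and without Cxcl9, none of 20 members passed 2-fold in both libraries, against 0.307% of all genes tested. Within ND, Sema3g was at 169 CPM without and 95.03 with Cxcl9, and Efnb2 at 231 and 143.

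**Figure D2:**
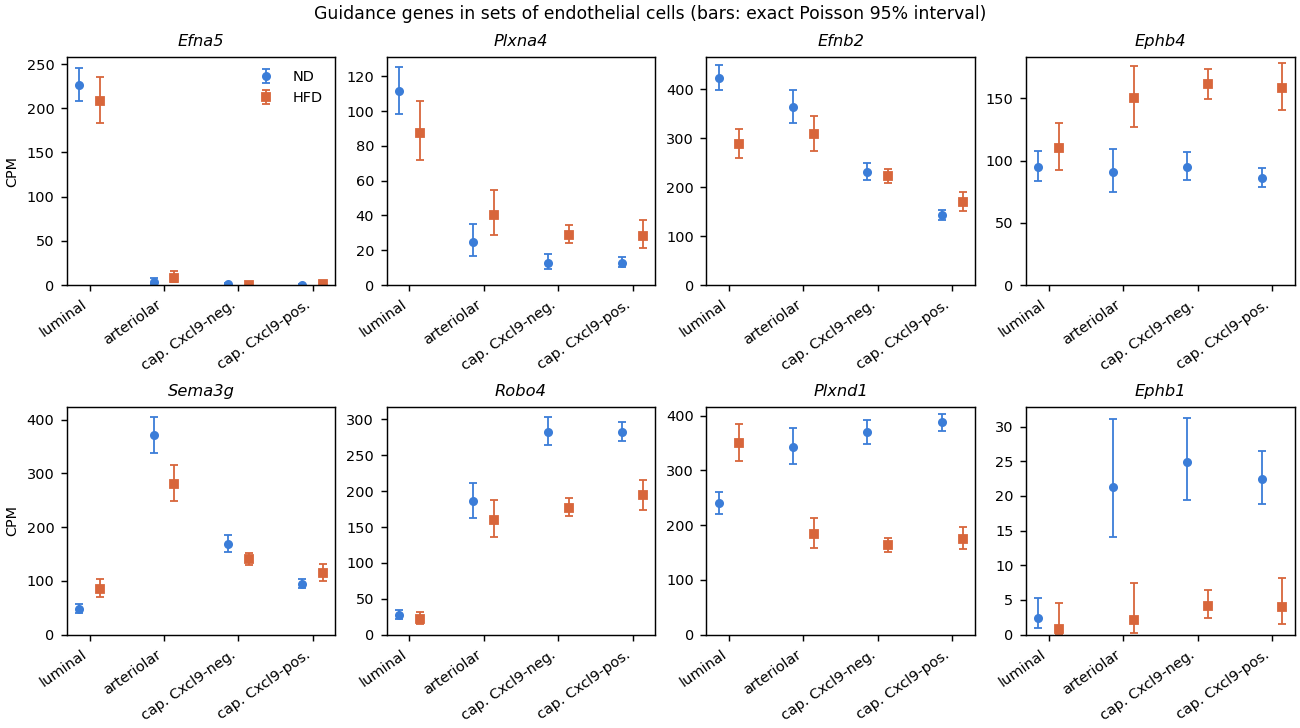
CPM of 8 guidance genes in 4 sets of endothelial cells, with circles for ND and squares for HFD (1 library each) and bars for the exact Poisson 95% interval. Efna5 and Plxna4 sit highest in luminal cells, Sema3g in arteriolar cells and Robo4 in both capillary sets, while Ephb1 is lower in HFD in every set.

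Lymphatic cells (Prox1, Ccl21a, Mmrn1 and others) were 28 in ND and 6 in HFD. Sema3d was there at 324 CPM in ND and 551 in HFD, from 74 and 15 UMIs, and Sema3a, a repelling secreted semaphorin, at 101 and 478, from 23 and 13 UMIs. In the capillary and luminal sets neither passed 3.64 CPM, and in arteriolar cells Sema3d was at 0 and 15.4 CPM. Of the co-receptors, Nrp2, a known lymphatic gene, was at 442 and 478 CPM in the same cells, against 27.5 and 16.2 in luminal cells. Nrp2 was not confined to lymphatic cells. Capillary cells had it at 382 and 202 CPM with Cxcl9 and at 269 and 166 without, and arteriolar cells at 216 and 127. Nrp1, the neuropilin that binds Sema3a, was at 74.3 and 0 CPM in lymphatic cells, against 443 and 283 in luminal cells. With 6 HFD cells the lymphatic values carry no comparison between diets.

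In fibroblasts, cells marked by Pi16, Dpp4 or Cd248 (485 ND and 283 HFD cells) held 5 members at least 2-fold higher than other fibroblasts in both libraries, of 14 tested and against 6.02% of all genes tested, and none lower. Sema3c was at 713 CPM in ND and 527 in HFD in this set, and between 52.9 and 74.4 in the set marked by Inmt and among fibroblasts of no set. Sema3e, the ligand of Plxnd1, was at 22.9 and 63.2 CPM in the Pi16 set, and 50 of its 51 fibroblast UMIs in ND and all 89 in HFD lay there. Robo1 was at 45.8 and 34.8 CPM, and Sema3d and Efna5 were the others. Slit3 did not follow them: it was at 166 and 195 CPM in the Pi16 set and between 108 and 197 in the Inmt set and the fibroblasts of no set. Epha3 was highest in the ND set marked by Fmod, Wisp2 and Comp, at 254 CPM in 102 cells, and the HFD library had only 11 such cells and 1 Epha3 UMI in them.

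In macrophages, resident-type cells (Lyve1, Folr2, Cd163, Timd4) were 212 in ND and 192 in HFD, and foam-type cells (Gpnmb, Trem2, Spp1, Fabp5) 30 and 217. Sema4a was at 237 and 210.5 CPM in resident and at 61.6 and 18.8 in foam-type cells, the 1 member of 3 tested that passed 2-fold in both libraries, against 12.4% of all genes tested. A few further genes had too few UMIs for that rule. Sema6d, a membrane semaphorin, was at 39.2 and 43.4 CPM in resident cells and at 0 and 4.06 in foam-type cells. In ND foam-type cells 3 UMIs in place of 0 would give 12.3 CPM. Sema4d went the other way, at 1.96 and 5.66 CPM in resident and 86.3 and 50.7 in foam-type cells. Plxna1, the receptor of Sema6d, was at 16.7 and 24.5 CPM in resident and 57.5 and 54.8 in foam-type cells. Each of these 4 genes kept its side in both libraries.

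**Figure D3:**
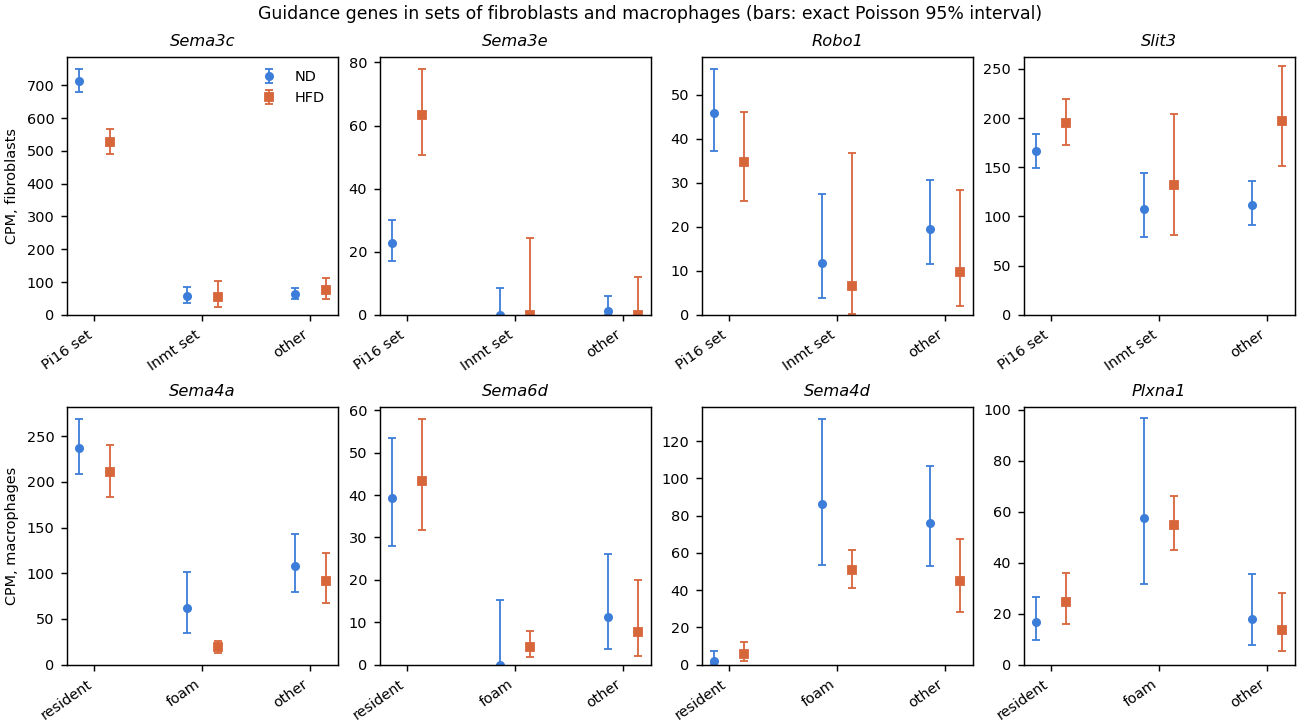
CPM of 4 guidance genes in 3 sets of fibroblasts (upper row) and of 4 in 3 sets of macrophages (lower row), with circles for ND and squares for HFD (1 library each) and bars for the exact Poisson 95% interval. Sema3c and Sema3e are highest in the Pi16 set and Slit3 is not, and Sema4a and Sema6d are highest in resident cells where Sema4d is lowest.

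Between diets, few members passed 2-fold in endothelial cells, at shares near those of all genes. Of 33 members that reached 50 UMIs when the libraries are added, 3 were at least 2-fold lower, against 5.29% of all genes, and 0 were at least 2-fold higher, against 1.69%. When libraries were scaled by the median of ratios in place of total UMIs, which takes out a median log2 ratio of −0.14 in endothelium and fibroblasts and −0.15 in macrophages, the endothelial split was 3 lower and 1 higher (Efna4, at 4.93 and 9.48 CPM). The median log2 ratio was −0.18 over the members and −0.15 over all 11262 genes listed. With each cell thinned to 1000 UMIs, 0 members were counted as lower in endothelium, 1 in fibroblasts and 0 in macrophages, and 0 as higher in fibroblasts.

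Ephb1, a receptor for ephrin-B ligands, was at 18.7 CPM in ND and 3.24 in HFD, from 247 and 28 UMIs, a log2 ratio of −2.53 (95% interval −3.15 to −1.96). The ND UMIs were spread over 216 cells with at most 5 in any cell, and the gene was lower in HFD in each set: 21.4 and 2.05 CPM in arteriolar cells, 22.4 and 3.97 in capillary cells with Cxcl9, and 24.8 and 4.06 in those without, with 6 UMIs in ND and 1 in HFD among luminal cells. Sema5a was at 3.94 and 1.39 CPM (log2 ratio −1.51, −2.55 to −0.58), from 52 and 12 UMIs, and 25 of the 52 ND UMIs came from 5 cells. With each cell thinned to 1000 UMIs its log2 ratio was 0.32, the opposite direction, and that of Ephb1 was −3.52.

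Epha7, an EphA receptor, had 155 UMIs in ND endothelium and 0 in HFD, where 3 UMIs in place of 0 would give a log2 ratio of −5.08. Of the ND UMIs 144 came from 14 of the 278 luminal cells. These 14 cells had a median of 19094 UMIs, against 6591 in the other ND luminal cells, and carried the cardiac transcription factor genes Gata4 at 119 CPM, Tbx20 at 66.4 and Hand2 at 182, against 3.66, 5.95 and 7.78 in the others. Efna5 was at 66.4 CPM in them and at 247 in the other ND luminal cells. No HFD luminal cell held an Epha7 UMI. The endothelial value therefore rests mostly on 14 cells of 1 library. Without the luminal set the endothelial log2 ratio with 3 UMIs in place of 0 was −1.34. Fibroblasts had too few Epha7 UMIs to be listed, 38 in ND and 1 in HFD, but were also lower in HFD, at 9.47 and 0.493 CPM. Diet and library cannot be told apart.

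Smaller differences with narrow intervals ran both ways. Efnb1 was at 156 CPM in ND and 277 in HFD (log2 ratio 0.83, 0.74 to 0.91), Sema7a at 89.3 and 149 (0.74), Ephb4 at 92.6 and 150.4 (0.70, 0.59 to 0.81), Sema3f at 106 and 163 (0.62) and Sema4c at 171 and 235 (0.46). Plxnd1 was at 346 and 197 CPM (−0.82, −0.90 to −0.74) and Robo4 at 219.5 and 154 (−0.51, −0.61 to −0.42). Efnb2 stayed close, at 238 and 228 CPM (−0.06, −0.14 to 0.02), and so did Sema3g, at 128 and 141 (0.14, 0.03 to 0.24), whose direction turned to −0.17 with thinned cells and to −0.07 with the sets weighted alike in both libraries. The arterial mark thus differed little between the libraries, while its receptor was higher in HFD. Nrp2 was lower in HFD at 148 CPM against 273 in ND (log2 ratio −0.88), and Nrp1 was at 494 and 552 (0.16).

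Within sets, further members passed 2-fold. Of 21 members listed in capillary cells with Cxcl9, 1 was higher and 2 were lower, against 1.88% and 5.52% of all genes, and without Cxcl9 the counts were again 1 and 2 of 21, against 2.23% and 4.55%. Luminal cells had 0 higher and 1 lower (Epha7) of 21, against 1.93% and 3.8%, and arteriolar cells had neither among 18, against 1.84% and 3.85%. In both capillary sets Plxnd1 passed 2-fold, at 388 CPM in ND and 175 in HFD with Cxcl9 and at 369 and 163 without. Luminal cells had the opposite order, at 239.5 and 349.6 CPM. Plxna4 was at 12.9 and 28.4 CPM in capillary cells with Cxcl9 and at 12.9 and 28.9 in those without, past 2-fold upwards in both, and at 111 and 87.4 in luminal cells. Sema6a and Efna1 resembled Plxnd1, and Sema7a resembled Plxna4.

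**Figure D4:**
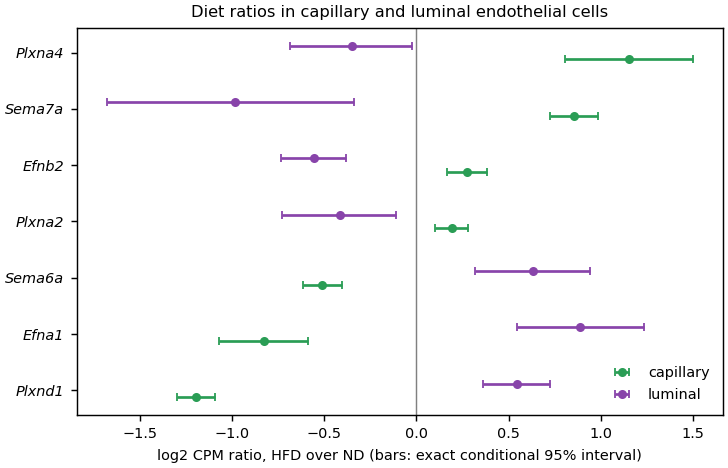
Log2 ratio of CPM in HFD over ND for the 7 guidance genes whose ratio had opposite signs in capillary (green) and luminal (purple) endothelial cells with both intervals clear of 0, with bars for the exact conditional 95% interval. Plxnd1, Efna1 and Sema6a lie below 0 in capillary and above 0 in luminal cells, and the other 4 the reverse. The share of all genes that meet this rule was not computed.

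In fibroblasts 2 of 27 members were at least 2-fold higher in HFD, against 1.55% of all genes, and 5 at least 2-fold lower, against 5.05%. Sema3e was at 12.7 CPM in ND and 43.9 in HFD (log2 ratio 1.79, 1.28 to 2.31), from 51 UMIs in 36 cells and 89 UMIs in 55 cells. Within the Pi16 set alone it was at 22.9 and 63.2 CPM (1.46, 0.95 to 1.99), so most of the difference was present inside the set that holds it. It was the 1 member of 19 listed in that set that was higher past 2-fold, against 1.38% of all genes, and Efnb1, at 41.2 and 16.3 CPM, was the 1 lower, against 3.56%. Sema4c was at 18.4 and 37.0 CPM (1.004, 0.52 to 1.49), just at the 2-fold line. Endothelial cells, the largest class, held Sema4c at 171 and 235 CPM, and whether their free RNA or doublets enter the fibroblast value was not tested.

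The 5 lower members were Slit2, a secreted ligand of Robo1, at 27.9 CPM in ND and 9.87 in HFD (log2 ratio −1.50, −2.27 to −0.81), Sema3f at 17.7 and 6.91 (−1.36), Efna2 at 21.2 and 8.39 (−1.34), Plxna3 at 10.97 and 4.44 (−1.30) and Ephb2 at 32.2 and 13.8 (−1.22). All but Slit2 and Ephb2 had fewer than 20 UMIs in HFD. Slit2 and Sema3f were highest in the ND Fmod set, at 83.9 and 56.0 CPM, and that set was 102 of 991 fibroblasts in ND and 11 of 432 in HFD. In the Pi16 set Slit2 was at 13.7 and 7.10 CPM and Sema3f at 6.87 and 5.68. The receptor Robo1 was at 34.7 and 26.6 CPM (−0.38, −0.86 to 0.08), and Slit3 at 139.6 and 191 (0.46, 0.27 to 0.65), so the 2 Slits of fibroblasts differed in direction. Slit2 went the other way in endothelium, where it had too few UMIs to be listed (11 in ND and 26 in HFD). It was at 0.834 and 3.01 CPM there. Luminal cells held 10 and 17 of these UMIs, at 4.05 and 13.8 CPM (log2 ratio 1.77, 0.56 to 3.05). In fibroblasts the median log2 ratio was −0.38 over the members and −0.16 over all genes listed.

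In macrophages 2 of 12 members were at least 2-fold lower in HFD, against 5.64% of all genes, and 0 higher, against 3.22%. Plxna4 was at 19.3 CPM in ND and 5.93 in HFD (log2 ratio −1.70, −2.57 to −0.87), from 33 and 21 UMIs. Sema4a was at 178 and 86.6 CPM (−1.04, −1.28 to −0.81), from 305 and 307 UMIs. The foam-type share, in which Sema4a was low, was 30 of 346 macrophages in ND and 217 of 501 in HFD. Within resident cells Sema4a was at 237 and 210.5 CPM, and with the sets weighted alike in both libraries its log2 ratio was −0.37, a weighting chosen after the data were seen, which also took Sema4d to −0.68. Of 6 members listed in resident cells 0 were higher and 1 lower (Plxnc1, at 35.3 and 17.0 CPM), against 1.23% and 2.8% of all genes, and of 6 in foam-type cells 0 were higher and 1 lower (Sema4a), against 6.13% and 4.63%. Plxnb2, at 154 and 135 CPM (−0.19, −0.41 to 0.03), and Sema4d (0.13, −0.33 to 0.60) had intervals that include equality. The mural gate had no member with 50 UMIs.

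**Figure D5:**
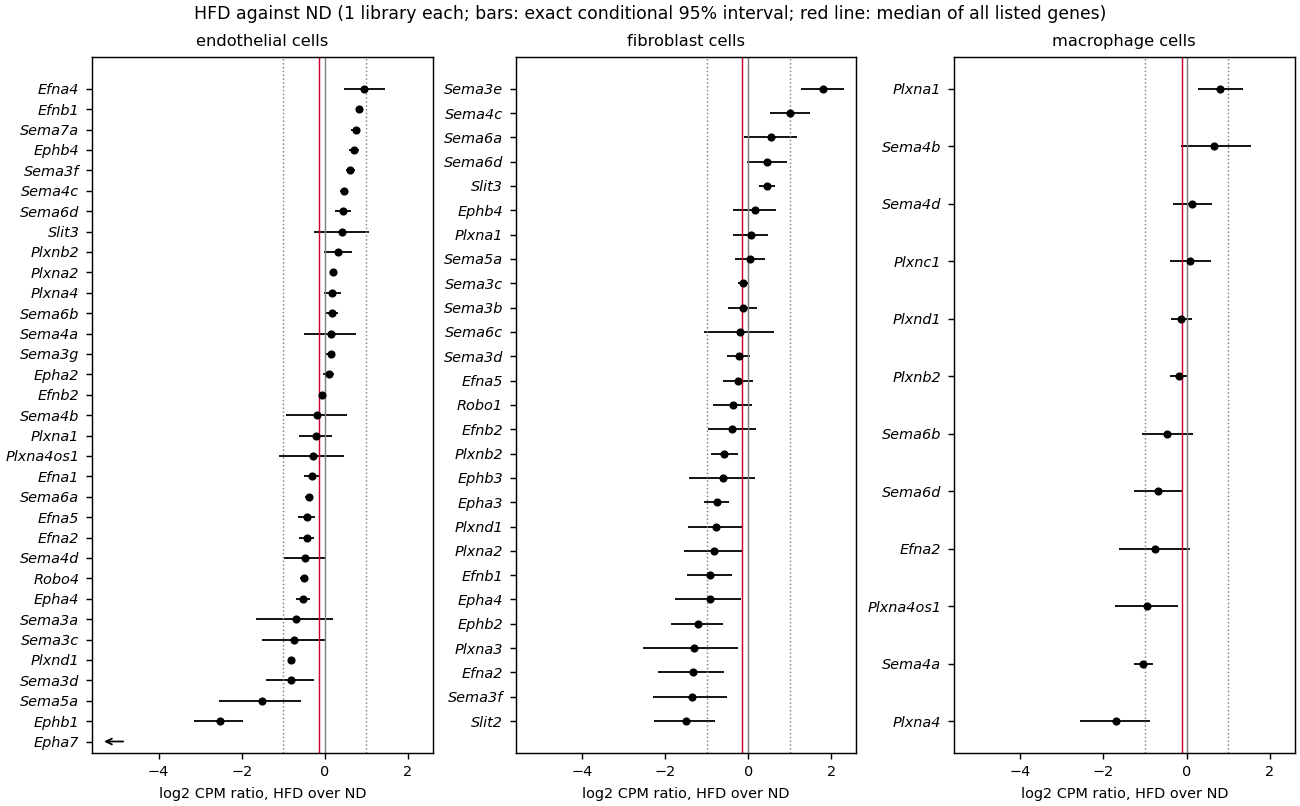
Log2 ratio of CPM in HFD over ND for each guidance gene that reached 50 UMIs when the libraries are added, in endothelial, fibroblast and macrophage cells, with bars for the exact conditional 95% interval, dotted lines at 2-fold and a red line at the median of all genes listed. Epha7, with 0 UMIs in HFD, is drawn as an arrow from the upper end of its interval, Ephb1 and Sema5a lie below 2-fold in endothelium, and Sema3e is the highest in fibroblasts.

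Other genes of these pathways were followed from a list of 43 co-receptors, netrins, netrin receptors and cytoplasmic effectors, 42 of which were in the count table. In endothelium 29 were listed, of which 1 was at least 2-fold higher in HFD and 1 at least 2-fold lower, against 1.69% and 5.29% of all genes. The higher was Srgap1, a GTPase-activating protein that acts behind Robos, at 15.4 CPM in ND and 37.0 in HFD. The lower was the integrin gene Itga1, at 645 and 299. In fibroblasts 4 of 26 were lower and 0 higher, against 5.05% and 1.55% of all genes, among them the netrin receptor gene Unc5b, at 32.7 and 5.92 CPM, and Mical2, which acts behind plexins, at 50.4 and 11.8. In macrophages 2 of 16 were lower and 0 higher, against 5.64% and 3.22%. Median log2 ratios of the list were −0.27, −0.24 and −0.51, and those of all genes listed −0.15, −0.16 and −0.10. Cd72, the leukocyte receptor for Sema4d, was highest in macrophages in both libraries, at 132 and 93.4 CPM.

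Several members lie next to each other on GRCm38, and some of these neighbours differed in their class while others shared cells. Sema3b and Sema3f lie 72.3 kb apart on chromosome 9, and Sema3b was at 55.3 and 50.3 CPM in fibroblasts and at 0.455 and 1.27 in endothelium, whereas Sema3f was at 106 and 163 CPM in endothelium. Sema3d, Sema3a and Sema3e follow one another on chromosome 5 with gaps of 536 kb and 423 kb, the first 2 shared by lymphatic cells and the first and last by Pi16-set fibroblasts. Efna1 and Efna3 lie 32.8 kb apart on chromosome 3 and were both mainly endothelial, Efna3 with 14 of its 16 gated UMIs there in each library. Efna4, 10.4 kb from Efna3, was at 4.93 and 9.48 CPM in endothelium. Its highest class was fibroblasts in ND, at 6.73 CPM, and the few mesothelial cells in HFD, at 31.5 CPM. Robo4 and Robo3 lie 554 bases apart on chromosome 9 on opposite strands, and Robo3 had 8 UMIs in all, too few to be ranked.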

How the data were processed

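Single-cell suspensions of aortic arch from 2 aortas per diet were pooled and sequenced as 1 10x Genomics library each for ND and HFD. The deposited counts are whole UMI counts per gene and barcode that the authors made with Cell Ranger (header version 3.0.1; build mm10 per the labels), with no filter on mitochondrial share. The joined matrix of both libraries was not used.

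Kept barcodes had 200 or more genes, 200 or more UMIs and a mitochondrial share of 30% or less, which gave 5416 of 10234 and 2739 of 14225 barcodes. A cell was assigned to 1 of 15 classes when it had UMIs of at least 3 of the 8 markers of the class and of at least 2 more than of any other class, and 244 ND and 189 HFD cells with mixed markers and 175 and 125 with none were left out. Sets within classes were gated on further markers. UMIs were summed per class and library and divided by the class total (CPM), with exact Poisson intervals for levels and exact conditional binomial intervals for ratios (Python 3.11.15, scipy 1.17.1, pandas 2.3.3, scanpy 1.11.5). No test was run, since each diet had 1 library. Scrublet called 0 and 1 doublets and so did not work, and the 6% of cells with the highest scores were left out as an alternative. For comparison with other cells, members needed 20 UMIs in the class in each library, and for the diets 50 UMIs in both libraries together.

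Genes were named by rule: up to 4 members per class by the smaller of both folds over other cells, up to 4 per direction and class past 2-fold between diets, and always Efnb2, Ephb4, Plxnd1, Sema3g, Robo4, Sema4d, Plxnb2, Nrp1 and Nrp2. Other names were chosen after values were seen. The members and all gene lists were chosen with earlier results of these data known. Gene positions and promoters are from GENCODE and RefSeq annotation of GRCm38. Scripts for ratios were tested on simulated class totals with counting error only, which is what the intervals assume. The simulation held no single cells, so it does not show how the intervals behave where few cells hold most UMIs.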

Additional observations from a re-analysis of the deposited data

Results flagged for a closer look

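In 7 genes the ratio between diets had opposite signs in capillary and luminal endothelial cells, with both counting intervals clear of 0. The difference itself was not tested. The share of all genes that meet this rule was not computed, so the count cannot be read as a trait of these families. The log2 ratio of HFD over ND was −1.19 in capillary and 0.55 in luminal cells for Plxnd1, −0.83 and 0.89 for Efna1, and −0.51 and 0.63 for Sema6a. It was 1.15 and −0.35 for Plxna4, 0.85 and −0.99 for Sema7a, 0.27 and −0.56 for Efnb2, and 0.19 and −0.42 for Plxna2. For Efnb2 the capillary ratio moved with the mixture of sets: the level was 231 CPM in ND and 223 in HFD without Cxcl9 and 143 and 169 with it, and cells with Cxcl9 were 1074 of the capillary cells in ND and 243 in HFD.

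Barcodes left out by the filters also held signal. In 1006 ND and 4370 HFD endothelial barcodes of this kind, Ephb1 was at 11.96 and 2.25 CPM and Plxnd1 at 259 and 116, the same direction as in the cells kept. In 121 and 493 macrophage barcodes Sema4a was at 46.1 and 90.3 CPM, from 10 and 126 UMIs, the opposite direction to the cells kept. In 365 and 458 fibroblast barcodes Sema3e was at 0 and 18.2 CPM, from 0 and 20 UMIs, the same direction as in the cells kept. Slit2, lower in HFD among the cells kept, was there at 16.9 and 24.6 CPM (log2 ratio 0.54, −0.70 to 1.98). Of the other members lower in kept HFD fibroblasts, Plxna3 was at a log2 ratio of 0.33, Sema3f at −0.19, Efna2 at −0.67 and Ephb2 at −0.31. All of these intervals include 0.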

How the results depend on the processing

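No paired analysis was possible because each diet had 1 library and no test was run. Of 184 counts recomputed under an alternative 143 stayed within 1.5 times and 41 did not. Of 346 single values 292 stayed within their counting interval, 51 moved outside it and 3 reversed. The 292 include the diet ratios under the changed minima of UMIs (20, 100 and none). Those minima alter only the counts, so these ratios could not move. With each cell thinned to 1000 UMIs (63 ND cells left out), members at least 2-fold over other cells were 6 in fibroblasts, 2 in macrophages and 0 in mesothelial cells; members highest in fibroblasts were 2 in ND and 1 in HFD, in mesothelial cells 5 in HFD, and 17 kept their class. Luminal cells then had 0 members higher than capillary, 0 higher than arteriolar and 1 lower, and the Pi16 set 1 higher. Between diets 0 were lower in endothelium, 0 higher and 1 lower in fibroblasts and 0 lower in macrophages, Sema5a was at 0.32 and Sema3g at −0.17. Thinning leaves fewer UMIs, so fewer members reach the minimum. At most 20% mitochondrial UMIs gave 3 mesothelial members, 1 higher in arteriolar cells and 2 in the Pi16 set. The stricter gate gave 1 arteriolar, 3 Pi16 and 1 higher in HFD endothelium. Just 1 arteriolar member was left without the highest doublet scores and without mitochondrial, haemoglobin and ribosomal protein genes, the latter also giving 1 higher in HFD endothelium. Median of ratios scaling gave 1 higher in endothelium and 1 lower in macrophages. A minimum of 20 UMIs gave 1 higher and 5 lower in endothelium, 10 lower in fibroblasts and 1 higher in macrophages, a minimum of 100 gave 3 lower in fibroblasts and 1 in macrophages, and no minimum gave 3 higher and 9 lower, 5 and 10, and 3 and 10. A minimum of 20 UMIs to rank gave 9 members highest in HFD fibroblasts. Weighting sets alike in both libraries, each by its UMIs in both together, gave 1 higher in endothelium, 1 lower in macrophages and Sema3g at −0.075. This weighting was chosen after seeing the data. Leaving out the luminal set, also chosen after seeing the data, took Plxnd1 to −1.12. No setting left out a replicate, since there is 1 library a diet, and the depth of classes under 50 cells limits their values.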
